A study of Rattus norvegicus with 29 samples.

Results

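The set comprises 150 transcripts whose level was higher with each of 4 toxic compounds than in control after 24 h, among 28420 transcripts measured in primary epithelial cells of the rat renal proximal tubule. The members were chosen by TPM, a transcript level corrected for transcript length and library total. For each compound, L was the log2 of the ratio of the treated to the control group mean at 24 h, with 1 TPM added to both means. A transcript qualified with a mean of 1 to 500 TPM over the 5 control libraries and an L of at least 0.6 for each compound. Of the 13730 transcripts in that level range, 285 qualified, and the 150 with the highest value of their lowest L were taken. The mirrored rule, with an L of -0.6 or below for each compound, was met by 381 transcripts.

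The cultures were exposed to acetaminophen (a pain reliever), gentamicin (an antibiotic of the aminoglycoside class), TCDD (a chlorinated dioxin and ligand of the aryl hydrocarbon receptor) or trichloroethylene (a solvent used in industry), or were kept as control. RNA was sequenced at 6 h and 24 h, which gives 10 groups and 29 libraries: 3 libraries in each group, and 2 (replicates 2 and 3) in control at 6 h. All groups are the same kind of primary rat cell. The sources used here do not give doses, vehicles or the animals behind the cultures. Nothing in them says that replicates came from separate cultures, so a p-value here reflects no more than the scatter among these libraries, which may be technical. The libraries held between 8243698 and 11446612 estimated counts. The files give transcript identifiers that could not be paired with gene names, so the cell type could not be checked against its markers and no function is given to any member. A total of 4 members are named by identifier, and others by their rank under the rule; those described by rank were chosen after their values were seen.

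Proximal tubule cells form the wall of the nephron's first segment and take up filtered solutes and many drugs, which makes them a common target of nephrotoxic compounds. Aminoglycosides are known to enter these cells by endocytosis and to collect in lysosomes, and acetaminophen and trichloroethylene are known to be turned into reactive metabolites. TCDD is known to act through transcription driven by the aryl hydrocarbon receptor. Chemically unlike toxicants are also known to evoke shared stress programmes in epithelial cells, such as the responses to oxidants and to misfolded proteins; whether any member belongs to one of these cannot be said from identifiers.

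In the untreated cells the members were mostly of low abundance. Their mean over the 5 controls ran from 1.01 to 249 TPM with a median of 6.98 TPM, beside a median of 16.8 TPM for all transcripts in the level range. A control mean under 10 TPM was seen in 89 members and one over 100 TPM in 5. The members were also shorter, with a median length of 1567 bases (quartiles 929 and 2142) beside 1956 bases (quartiles 1230 and 3072) for the level range, and ran from 156 to 5324 bases.

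Together the members made up a small share of the transcript pool that differed between the groups. At 24 h they held 1.02% ± 0.105 of all TPM under acetaminophen, 2.25% ± 0.0540 under gentamicin, 1.06% ± 0.181 under TCDD and 0.901% ± 0.132 under trichloroethylene, against 0.252% ± 0.0179 in control (SD, n = 3 each). These values rest on the measure that chose the members and are given as a description, without a test. At 6 h the shares were 0.728% ± 0.0169 under acetaminophen, 0.723% ± 0.0955 under gentamicin, 0.345% ± 0.0305 under TCDD and 0.311% ± 0.0161 under trichloroethylene (n = 3 each), against 0.347% ± 0.000748 in control (n = 2). The acetaminophen and gentamicin libraries thus lay above control at both times, and those of TCDD and trichloroethylene at 24 h. A few abundant members weighed much in these sums. At 24 h the top 5 of each group held 30.9% of the members' TPM under acetaminophen and 38.1% under gentamicin. The top 5 held 26.05% under TCDD, 30.1% under trichloroethylene and 29.6% in control. Fragment lengths at 24 h averaged 254 ± 21.0 bases under acetaminophen, 262 ± 2.65 under gentamicin, 234 ± 3.91 under TCDD and 255 ± 5.90 under trichloroethylene, against 279 ± 9.60 bases in control (SD, n = 3 each); their part in the 24 h values was not tested. In these bulk samples, a larger share of the cells that carry a transcript and more of it per cell cannot be told apart.

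**Figure D1:**
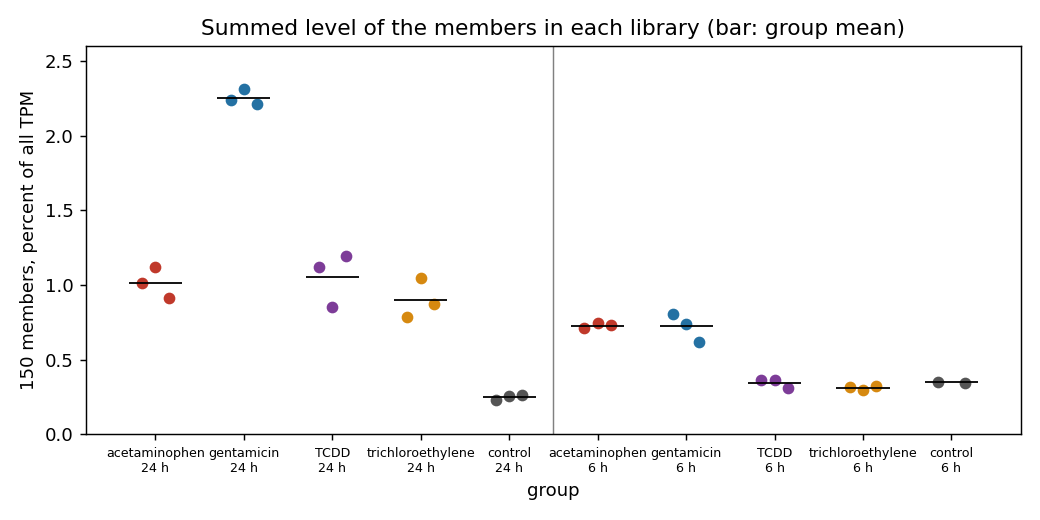
Summed level of the 150 members in each library, as a percent of all TPM (vertical axis), by group (horizontal axis, 24 h on the left, 6 h on the right); points are libraries and bars are group means. Gentamicin at 24 h stands highest at 2.21% to 2.31%, and the 24 h controls lowest at 0.232% to 0.266%.

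At 24 h, which is the contrast that defined the set, the size of the rise differed between compounds. The median L of the members was 1.71 under acetaminophen, 2.01 under gentamicin, 1.64 under TCDD and 1.42 under trichloroethylene, while the medians of all transcripts in the level range were 0.10, -0.22, -0.40 and 0.01 for the same compounds in that order. An L of 3 or more was reached by 16 members under acetaminophen, 39 under gentamicin, 16 under TCDD and 11 under trichloroethylene. The largest L was 5.20 under acetaminophen, 7.13 under gentamicin, 5.95 under TCDD and 4.16 under trichloroethylene. Gentamicin gave the largest of the 4 L values for 67 members, TCDD for 39, acetaminophen for 27 and trichloroethylene for 17. Trichloroethylene gave the smallest for 47, TCDD for 39, gentamicin for 36 and acetaminophen for 28.

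The spread of a member's 4 L values varied between members. It was not set against the level range or the scatter of replicates, so nothing is read from its size. The gap between a member's largest and smallest L had a median of 1.41 and ran from 0.19 to 5.72. It was under 0.5 in 9 members and over 2 in 42. For 46 members, all 3 gentamicin libraries lay above all 9 libraries of the other compounds; the same held for TCDD in 13, acetaminophen in 12 and trichloroethylene in 5. Over the level range it held for gentamicin in 13.8% of transcripts, TCDD in 4.49%, acetaminophen in 22.3% and trichloroethylene in 10.1%, and nothing is read from the members' counts. For the other 74, no compound stood clear of the other three. The first 10 members by rank were those with an L of at least 2 for all 4 compounds. At the lower end, the last member has a lowest L of 0.828 and the first transcript left out has 0.827; at the threshold itself, the lowest L was 0.6012 for the last transcript that qualified and 0.5998 for the first that did not, both far from the members.

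**Figure D2:**
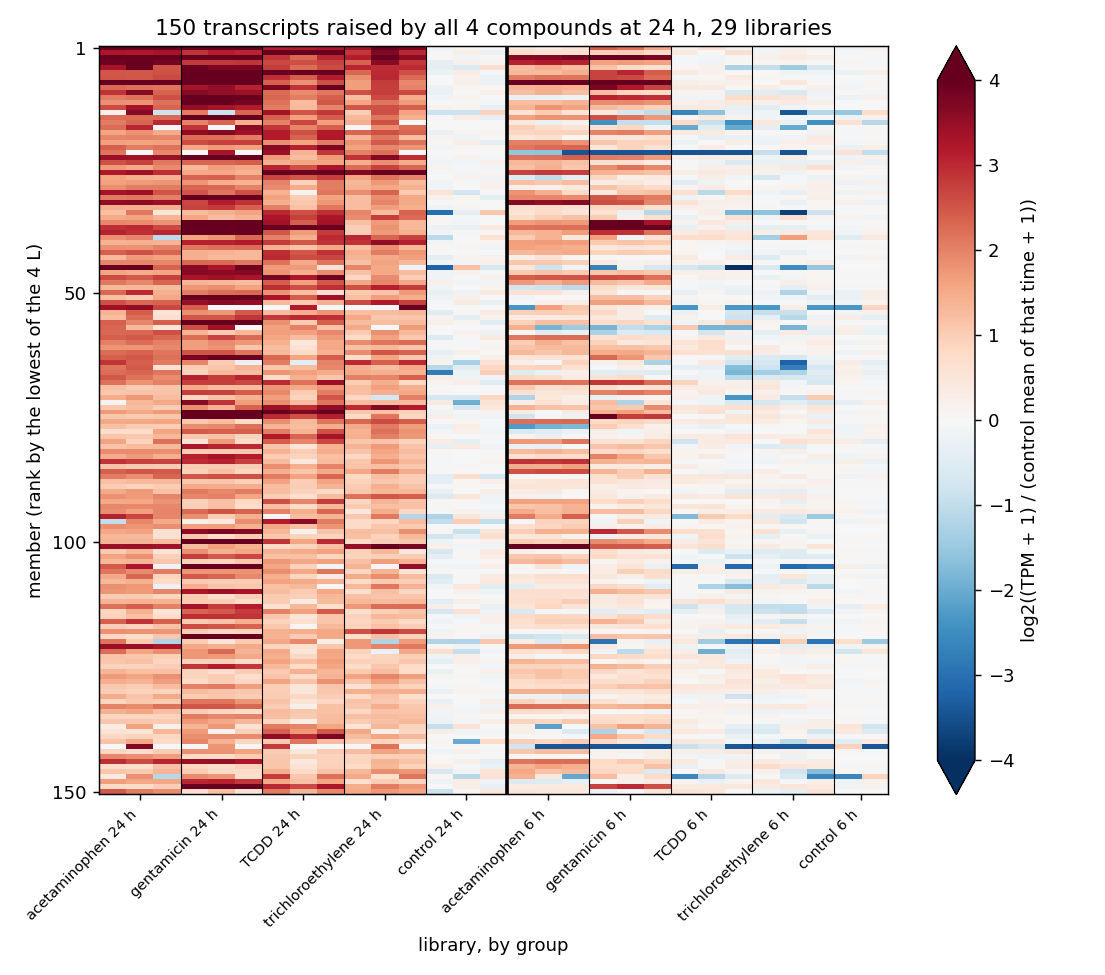
Each row is 1 of the 150 members in rank order and each column 1 of the 29 libraries, grouped by treatment (24 h left of the thick line, 6 h right of it); colour gives the log2 of TPM + 1 over the mean of the controls of that time + 1, clipped at -4 and 4. The 24 h treated columns are red by selection, the 6 h columns of acetaminophen and gentamicin are red for many members, and those of TCDD and trichloroethylene are mostly near white.

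The rise at 24 h was seen in every library for most members but not for all of them. In 119 members, all 3 libraries of each compound lay above all 3 controls, which held for 3.95% of the level range. By compound, this held for 134 members under acetaminophen, 138 under gentamicin, 137 under TCDD and 135 under trichloroethylene; over the level range it held for 37.3%, 24.6%, 18.1% and 29.1% of transcripts, and nothing is read from the members' counts, since these values chose them. The remaining 31 members overlapped the controls with at least 1 compound, and 2 of them with all 4. They include the 22 members whose estimated count, rounded to a whole number, was 0 in at least 1 of the 29 libraries. In 6 of those, the counts of all 3 controls at 24 h rounded to 0 (in 5 they were exactly 0), while the 6 h controls averaged 2.63 to 9.96 TPM, so that their L rests on the 1 TPM added. Such members, and others with a 24 h control mean under 1 TPM, entered the level range only through their 6 h controls. Their 6 h control levels are thus high by selection, and nothing is read from them. The 6 members at 0 were 156 to 1473 bases long. Among them, the member at rank 141 rests on 1 library per compound at 24 h. That library held 11.7 TPM under acetaminophen, 2.40 under gentamicin, 5.94 under TCDD and 3.53 under trichloroethylene, with the others at or near 0. The member at rank 53 rests on 1 library each under gentamicin, TCDD and trichloroethylene. Reads that several transcripts share are divided between them by the counting tool, and the part of this in such values was not tested.

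Within the 24 h groups, the spread between replicates differed. The median coefficient of variation of the members was 10.5% under acetaminophen, 10.3% under gentamicin, 24.3% under TCDD and 20.5% under trichloroethylene, against 19.1% in control. In the TCDD group, replicate 2 was the lowest library for 120 of the 150 members, and in the trichloroethylene group replicate 1 was the lowest for 103 and replicate 2 the highest for 109. Over the level range, TCDD replicate 2 was also the lowest, with a median log2 ratio of TPM + 1 to the control mean of -0.646. Replicates 1 and 3 had -0.381 and -0.241. For trichloroethylene replicates 1, 2 and 3 these medians were 0.006, -0.004 and 0.019. How often a library was lowest or highest over the level range was not counted. Without TCDD replicate 2, 304 transcripts qualified and 138 of the 150 members were again among the first 150. The values were 263 and 139 without trichloroethylene replicate 2. The controls mattered more for which transcripts came first: between 124 and 132 members were again among the first 150 when 1 of the 24 h controls was left out.

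The first member by rank, ENSRNOT00000026652 (912 bases), was close to the lower level limit in control. At 24 h it stood at 87.4, 109 and 72.6 TPM under acetaminophen, 54.0, 52.3 and 58.6 TPM under gentamicin, 20.7, 20.8 and 22.2 TPM under TCDD and 24.3, 50.2 and 32.2 TPM under trichloroethylene, against 1.17, 1.68 and 1.54 TPM in control. Every treated library was far above every control, with L values of 5.20, 4.51, 3.17 and 3.89 for the compounds in that order. At 6 h it had 3.05, 2.75 and 3.49 TPM with acetaminophen and 15.04, 12.7 and 7.79 TPM with gentamicin, against 1.60 and 2.35 TPM in control. Both groups lay above both controls, but only gentamicin passed the test (edgeR log2 change 2.46 ± 0.40 SE, adjusted p = 0.00013), while acetaminophen gave 0.71 ± 0.47 (adjusted p = 0.22). The difference between these compounds at 6 h passed as well (acetaminophen minus gentamicin -1.75 ± 0.32, adjusted p = 5.5e-05). The TCDD libraries at 6 h held 2.35, 3.45 and 1.72 TPM and the trichloroethylene libraries 1.74, 2.38 and 2.28 TPM, and both overlapped the controls.

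ENSRNOT00000008941 (861 bases, rank 3) had, among members called higher with both acetaminophen and gentamicin at 6 h, the smallest value of its larger p. At 6 h it stood at 268, 273 and 295 TPM with acetaminophen and 359, 367 and 293 TPM with gentamicin, against 21.0 and 20.03 TPM in control. These are edgeR log2 changes of 3.83 ± 0.25 (SE, adjusted p = 1.1e-11) and 3.95 ± 0.25 (adjusted p = 2e-10), and the groups did not overlap with control. Between the 2 compounds the change differed by -0.11 ± 0.18 (acetaminophen minus gentamicin, adjusted p = 0.62). By 24 h they were apart: gentamicin reached 2121, 2263 and 2515 TPM and acetaminophen 396, 375 and 394 TPM, against 17.3, 15.3 and 17.0 TPM in control. At 6 h the TCDD libraries held 19.7, 19.1 and 20.02 TPM, just below both controls, and the trichloroethylene libraries 23.5, 25.9 and 24.3 TPM, above both. Neither change passed the test (edgeR adjusted p = 0.85 and 0.87). At 24 h the TCDD libraries stood at 127, 85.9 and 145 TPM and the trichloroethylene libraries at 153, 342 and 207 TPM.

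The 6 h contrasts did not choose the members, apart from the 6 h controls' part in the level range, and they were tested. For the 6 members at 0 in the 24 h controls, that part decided entry and favours lower changes at 6 h. The same holds for other members with a 24 h control mean under 1 TPM, such as the one at rank 105, which were not counted. The model was edgeR's quasi-likelihood test on the estimated counts over all 15990 transcripts kept by a low-count filter, with Benjamini-Hochberg adjustment and a call at an adjusted p under 0.05. Of the 150 members, 148 passed the filter; those at ranks 16 and 53 did not and have no 6 h test.

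With acetaminophen, 88 of the 148 tested members were higher at 6 h and 5 were lower, with the rest not called. That is 59.5% called higher, where 24.2% of all tested transcripts were, and 3.38% called lower, where 24.5% were. The members' log2 changes had a median of 0.96 and quartiles of 0.34 and 1.65, while the median of all tested transcripts was 0.00. Among the members called higher the median was 1.51, with 69 above 1 and 25 above 2. In TPM, all 3 acetaminophen libraries lay above both controls for 107 members and below both for 8 (32.6% and 42.5% of the level range). The largest called change was that of the member at rank 8 (2519 bases), at 131, 126 and 133 TPM with acetaminophen against 3.24 and 3.48 TPM in control, a log2 change of 5.32 ± 0.35 (SE, with an edgeR adjusted p of 2.8e-11). At 24 h this member held the same level with acetaminophen, 139, 124 and 146 TPM, against 3.66, 4.47 and 2.98 TPM in control. The acetaminophen libraries at 6 h had shorter fragments than the controls, 248.9 ± 2.56 bases (n = 3) against 260.2 ± 4.31 bases (n = 2), taken as transcript length minus effective length. With each library's fragment length as a covariate, the members' median was 0.82.

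With gentamicin, 72 of the 148 tested members were higher at 6 h and 1 was lower. These are 48.6% called higher, where 8.34% of all tested transcripts were, and 0.676% called lower, where 4.88% were. The median log2 change was 0.70, with quartiles of 0.22 and 1.30, beside a median of 0.01 over all tested transcripts. The members called higher had a median of 1.34, and 22 of them exceeded 2. In TPM, all 3 gentamicin libraries lay above both controls for 107 members and below both for 6 (36.8% and 14.1% of the level range). A total of 2 members without a count in the 6 h gentamicin libraries are included, and setting them at 3 counts per library left the median at 0.70. The count of members called higher was 58 without control replicate 2 and 57 without control replicate 3.

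The highest levels in the set were reached by gentamicin. The member at rank 36 (1005 bases) stood at 3403, 3848 and 3292 TPM with gentamicin at 24 h, against 48.2, 42.9 and 47.0 TPM in control. With the other compounds at 24 h it averaged 170 ± 6.83 TPM with acetaminophen, 401 ± 129 TPM with TCDD and 124 ± 24.3 TPM with trichloroethylene (SD, n = 3 each). At 6 h it already stood at 779, 664 and 408 TPM with gentamicin and 128, 138 and 130 TPM with acetaminophen, against 38.1 and 40.7 TPM in control. Both rises passed the edgeR test (log2 change 3.87 ± 0.25 SE, adjusted p = 1.9e-10, and 1.81 ± 0.23, adjusted p = 4.9e-07), and so did their difference (acetaminophen minus gentamicin -2.06 ± 0.19, adjusted p = 2e-09). The member at rank 37 (1936 bases) had the largest L of the set, 7.13 with gentamicin, and also the largest with TCDD, 5.95. It averaged 1015 ± 61.0 TPM with gentamicin and 448 ± 99.7 TPM with TCDD at 24 h, against 6.25 ± 2.00 TPM in control (n = 3 each), while trichloroethylene libraries held 13.5, 24.4 and 16.8 TPM. At 6 h the TCDD libraries of this member, at 5.71, 8.48 and 5.82 TPM, overlapped the controls at 6.71 and 7.94 TPM.

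**Figure D3:**
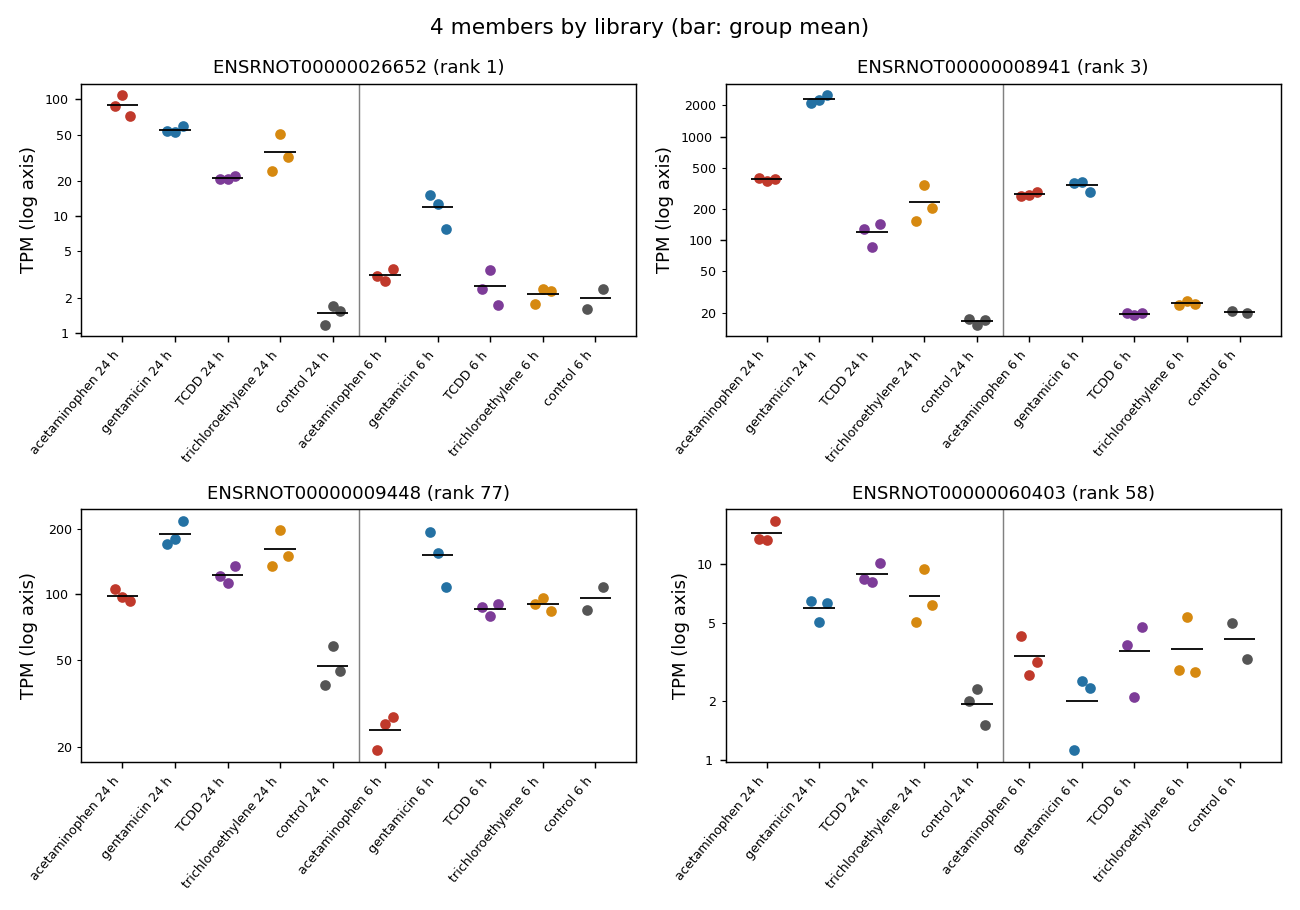
TPM in each library on a log axis (vertical) for 4 members, by group (horizontal, 24 h left of the line, 6 h right of it); points are libraries and bars group means. ENSRNOT00000026652 and ENSRNOT00000008941 are above control in every treated library at 24 h, while ENSRNOT00000009448 is below control with acetaminophen at 6 h and ENSRNOT00000060403 with gentamicin at 6 h.

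The 6 h calls of acetaminophen and gentamicin, which share the 6 h controls, divide the members as follows. Both compounds called 58 members higher, where 4.04% of all tested transcripts were called higher by both. Acetaminophen and not gentamicin called 30 (20.2% of all tested), and gentamicin and not acetaminophen 14 (4.3%). At least 1 of the compounds called 102 members higher (28.5%). Because of the shared controls, no overlap of the calls is read from these counts. Members called higher by both at 6 h had median log2 changes of 1.68 with acetaminophen and 1.46 with gentamicin at that time. Their median L at 24 h was 1.87 under acetaminophen, 2.79 under gentamicin, 1.80 under TCDD and 1.46 under trichloroethylene. The 13 members called higher with gentamicin and not called with acetaminophen at 6 h had a median L of 3.56 with gentamicin at 24 h. The 41 called with neither had medians of 1.55 under acetaminophen, 1.53 under gentamicin, 1.63 under TCDD and 1.34 under trichloroethylene.

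The difference between acetaminophen and gentamicin at 6 h was itself tested. It passed for 85 of the 148 members, with 50 higher and 35 lower with acetaminophen than with gentamicin (all tested transcripts: 26.1% higher and 28.3% lower). The groups that follow were formed by calls on the same 6 h libraries, so nothing is read from their counts. Of the 58 members called higher by both, 38 differed in size. Of the 30 called higher with acetaminophen and not with gentamicin, the difference passed in 23, and of the 14 in the other direction in 14. For example, the next to last member by rank (3194 bases) stood at 18.4, 18.7 and 19.3 TPM with acetaminophen and 99.5, 121 and 91.3 TPM with gentamicin at 6 h, a difference of -2.30 ± 0.13 (acetaminophen minus gentamicin, SE, with an edgeR adjusted p of 2.5e-13); control held 13.0 and 15.8 TPM. The member at rank 26 (1415 bases) differed the other way, at 112, 123 and 117 TPM with acetaminophen and 45.2, 43.0 and 38.1 TPM with gentamicin, a difference of 1.65 ± 0.17 (adjusted p = 8.4e-09), beside 16.7 and 16.3 TPM in control.

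For TCDD and trichloroethylene no member was called at 6 h, and none of all 15990 transcripts was (0% in each direction for both). At an unadjusted p under 0.05, edgeR had 7 members higher and 3 lower with TCDD, and 3 higher and 11 lower with trichloroethylene; DESeq2 and limma called 0 members for either compound. With only the compared groups in the edgeR fit, however, 4 members were called lower with trichloroethylene. Over all transcripts, edgeR had 1124 and 2070 at an unadjusted p under 0.05, and DESeq2 called 6 and 22. For trichloroethylene limma called 8, and the edgeR fit with only the compared groups 450. The members' median log2 change was -0.00 with TCDD and -0.11 with trichloroethylene, beside 0.03 and 0.01 for all tested transcripts. Their quartiles were -0.29 and 0.17 with TCDD and -0.37 and 0.07 with trichloroethylene. For each compound 1 member had no count in its 6 h libraries, and setting it at 3 counts per library left the medians at -0.00 and -0.11. The median SE of a member's change was 0.25 for both compounds. In TPM, all 3 TCDD libraries lay above both controls for 43 members and below them for 14 (37.2% and 5.37% of the level range), and the trichloroethylene libraries for 26 and 20 (40.5% and 9.98%). On the log2(TPM + 1) scale the median of all tested transcripts was itself shifted by 0.13 with TCDD and by 0.11 with trichloroethylene.

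**Figure D4:**
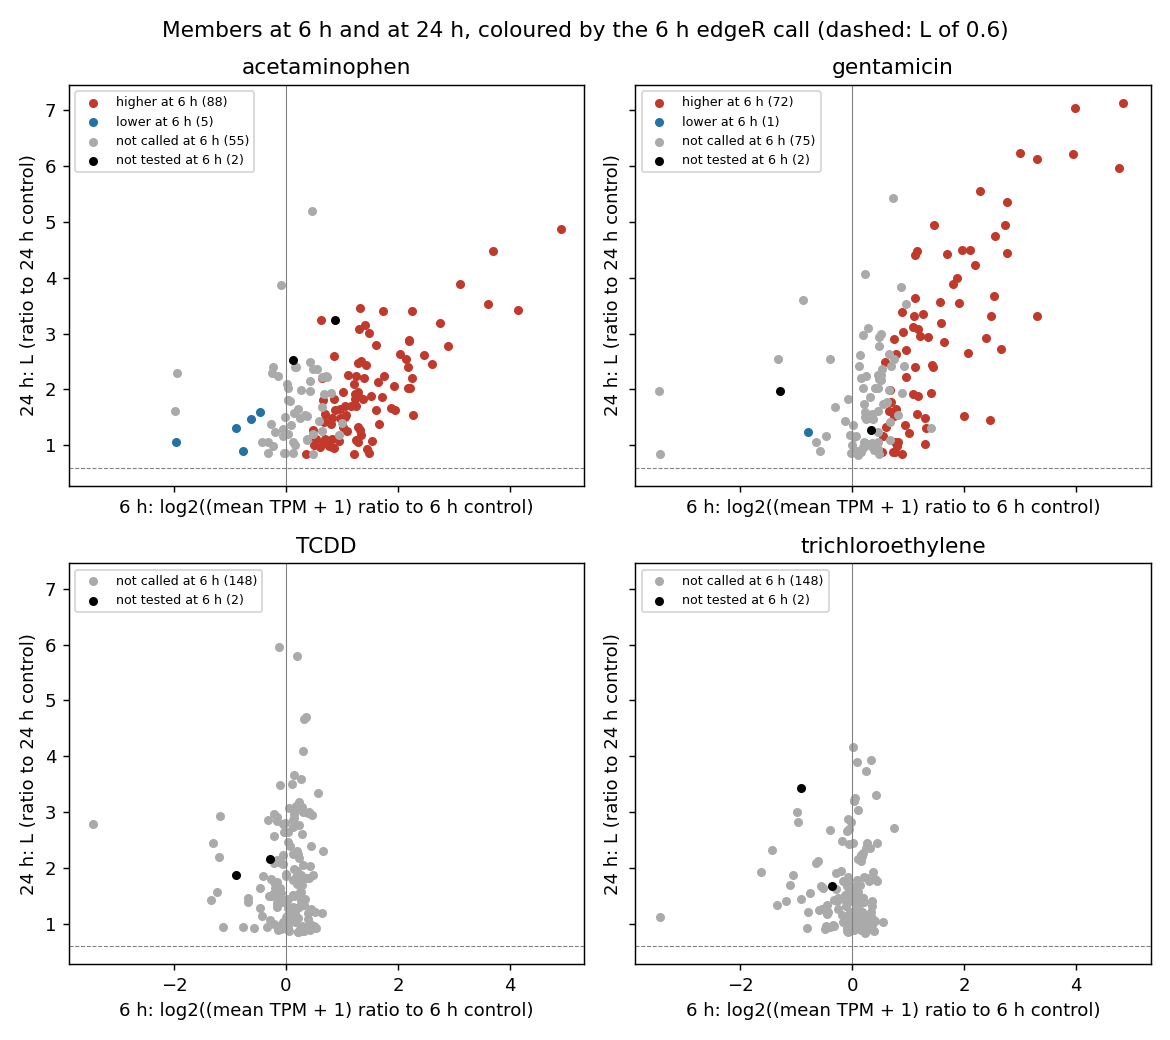
Each point is a member, with its log2 ratio of mean TPM + 1 to control at 6 h (horizontal) and its L at 24 h (vertical), 1 panel per compound; colour gives the 6 h edgeR call. With acetaminophen 88 members and with gentamicin 72 are called higher at 6 h and spread to the right, while with TCDD and with trichloroethylene no member is called and 143 of the 150 points lie between -1 and 1 on the horizontal axis, the others reaching -3.45 and -3.43. These 2 extremes are floor values of the members at ranks 22 (TCDD) and 141 (trichloroethylene). Each was at 0 TPM in all libraries of that compound at 6 h and in all 24 h controls.

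Across the 148 tested members, the 24 h L went with the 6 h change for acetaminophen (Pearson r = 0.50, Spearman rho = 0.43) and gentamicin (r = 0.55, rho = 0.59). For TCDD (r = -0.02, rho = 0.05) and trichloroethylene (r = 0.06, rho = 0.02) it did not. With these compounds no member was called at 6 h, and most changes were about the size of their median SE of 0.25. Their values therefore cannot show that a link is absent, and no contrast between compounds is read. Members without a count at 6 h are included, with changes down to -8.52 with gentamicin and TCDD and -7.71 with trichloroethylene. These are descriptions over members, which share their libraries; the 6 h and 24 h values of a compound come from separate libraries and separate controls.

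Set against their own 6 h libraries, the 24 h libraries of the compounds changed by different amounts. The median log2 ratio of mean TPM + 1 at 24 h to that at 6 h was 0.43 under acetaminophen, 1.01 under gentamicin, 1.25 under TCDD and 1.19 under trichloroethylene, beside 0.34, -0.15, -0.37 and 0.05 for all transcripts in the level range. All 3 libraries at 24 h lay above all 3 at 6 h for 87 members under acetaminophen, 109 under gentamicin, 121 under TCDD and 126 under trichloroethylene, and below them for 17, 5, 0 and 0. Over the level range the 24 h libraries lay above for 52.4%, 22.1%, 16.4% and 34.2% of transcripts and below for 12.3%, 38.2%, 47.7% and 27.3%; the 24 h libraries chose the members, so nothing is read from their counts. Among members called higher at 6 h, the 24 h mean exceeded the 6 h mean in 66 of 88 with acetaminophen and in 66 of 72 with gentamicin. The same limit holds here, and the share over all transcripts called higher at 6 h was not counted. The member at rank 40 (1940 bases) shows the contrast between compounds. It averaged 245 ± 6.18 TPM at 24 h and 308 ± 7.87 TPM at 6 h with acetaminophen, and 814 ± 25.4 TPM at 24 h and 207 ± 7.89 TPM at 6 h with gentamicin. With TCDD it averaged 628 ± 87.8 TPM at 24 h and 105 ± 5.10 TPM at 6 h, and with trichloroethylene 868 ± 211 TPM at 24 h and 98.03 ± 3.48 TPM at 6 h (SD, n = 3 each). Its controls were steady, at 93.1 ± 6.84 TPM at 24 h (n = 3) and 96.5 ± 2.23 TPM at 6 h (n = 2).

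The controls were not level over time for many members. The median log2 ratio of control TPM + 1 at 24 h to that at 6 h was -0.31, beside 0.16 for all transcripts in the level range. It was below 0 in 104 members, at -0.6 or below in 46 and at 0.6 or above in 3, against 34.1%, 4.22% and 14.5% of the level range. All 3 controls at 24 h lay below both at 6 h for 68 members and above both for 18 (17.8% and 41.9% of the level range). Low values in the 24 h controls favour selection by the rule. The 6 members at 0 there, and others with a mean under 1 TPM there, entered only through their 6 h controls. The control time change is therefore a description without a test. The ratio ran from -3.59 to 0.98.

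Against the 6 h controls, which the L values did not use, fewer of the members kept their rise with all compounds. With the same 24 h treated libraries, L was at least 0.6 for 126 members under acetaminophen, 125 under gentamicin, 117 under TCDD and 116 under trichloroethylene (over the level range 32.8%, 21.7%, 14.5% and 21.9%). It was at least 0.6 with all 4 compounds in 100 members, where 2.71% of the level range reached that and 2.08% reached it against the 24 h controls. It was above 0 with all 4 in 126 members, and the share of the level range above 0 was not counted. The median L against the 6 h controls was 1.38 under acetaminophen, 1.77 under gentamicin, 1.28 under TCDD and 1.21 under trichloroethylene. In 104 members, all 12 treated libraries at 24 h lay above all 5 controls of both times, as in 2.76% of the level range. The treated libraries in these counts are those that chose the members, so nothing is read from the difference to the level range. The 50 members outside the 100 fell short of 0.6 with at least 1 compound. Since every member has an L of at least 0.8275 against the 24 h controls, these 50 have by construction a lower control mean at 24 h than at 6 h.

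**Figure D5:**
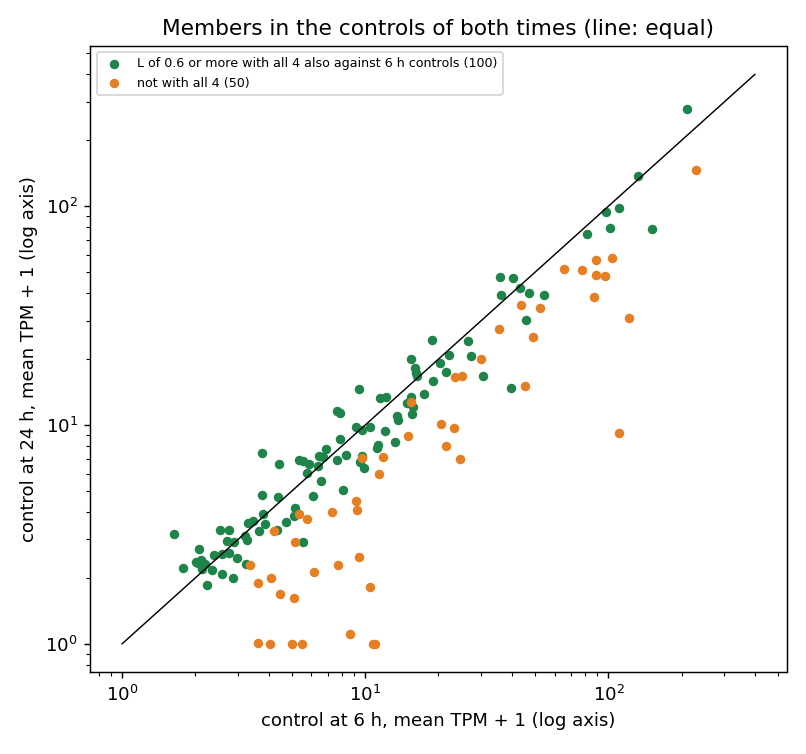
Mean TPM + 1 of each member in control at 6 h (horizontal, log axis) and at 24 h (vertical, log axis), with the line of equal values; green members have an L of 0.6 or more with all 4 compounds also against the 6 h controls (100) and orange ones do not (50). The orange members lie below the line by construction.

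ENSRNOT00000009448 (780 bases, rank 77) is one of these 50. At 24 h it stood at 106, 96.9 and 93.4 TPM under acetaminophen, 171, 179 and 218 TPM under gentamicin, 122, 113 and 135 TPM under TCDD and 135, 198 and 150 TPM under trichloroethylene, against 38.5, 57.8 and 44.4 TPM in control. All treated libraries were above all controls of that time. The 6 h controls held 84.4 and 108 TPM, and the acetaminophen libraries at 24 h overlapped these. At 6 h, acetaminophen libraries held 19.2, 25.4 and 27.2 TPM, far below both controls, a log2 change of -1.94 ± 0.23 (SE, with an edgeR adjusted p of 2.3e-07). Gentamicin libraries held 194, 155 and 108 TPM at 6 h, above both controls, with a change of 0.57 ± 0.22 that was not called (adjusted p = 0.09). The 2 compounds differed by -2.51 ± 0.22 (acetaminophen minus gentamicin, adjusted p = 7.4e-10).

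The other members called lower with acetaminophen at 6 h, at ranks 27, 49, 119 and 148, had smaller changes of -0.82, -0.91, -0.78 and -0.47. The one at rank 119 (3034 bases) moved in opposite directions with the 2 early compounds. At 6 h it held 7.63, 8.17 and 9.61 TPM with acetaminophen and 36.1, 33.8 and 34.1 TPM with gentamicin, against 15.2 and 14.9 TPM in control. It was called lower with acetaminophen (log2 change -0.78 ± 0.12 SE, edgeR adjusted p = 6.3e-06) and higher with gentamicin (1.08 ± 0.12, adjusted p = 3.9e-07). At 24 h the same member stood at 31.5, 29.5 and 37.7 TPM with acetaminophen and 426, 431 and 358 TPM with gentamicin, against 19.2, 17.8 and 14.7 TPM in control, so both compounds were above control by then.

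ENSRNOT00000060403 (1096 bases, rank 58) was the one member called lower with gentamicin at 6 h. It held 1.11, 2.52 and 2.31 TPM with gentamicin, against 4.99 and 3.27 TPM in control, a log2 change of -1.16 ± 0.36 (SE, with an edgeR adjusted p of 0.033). The call did not pass without control replicate 2 (-0.81), gentamicin replicate 1 (-0.90) or gentamicin replicate 3 (-1.24), nor by limma on log2(TPM + 1) (-0.80, adjusted p = 0.072) or with only the compared groups in the edgeR fit (-1.16, adjusted p = 0.098). At 24 h the gentamicin libraries stood at 6.47, 5.03 and 6.29 TPM and the acetaminophen libraries at 13.5, 13.3 and 16.6 TPM, against 1.99, 2.28 and 1.501 TPM in control.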

How the data were processed

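RNA of 29 libraries was sequenced, and quantified by the authors with kallisto 0.43, per the submitters' processing notes. Per the file headers, each deposited table lists estimated counts, TPM, length and effective length of 28420 transcripts. The transcript set, build and strand setting were not given in the sources used here. A reference table gave an Ensembl identifier for 0 genes, so no gene names, planned gene lists or sequences were used. The members and tests were chosen with earlier results of these data known.

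Mean TPM per group gave L, with 1 TPM added. For the 6 h tests, estimated counts were rounded, filtered with filterByExpr (minimum count 10; 15990 transcripts, 99.9% of counts) and scaled with TMM factors. One edgeR 4.0.16 quasi-likelihood model with robust dispersion (R 4.3.3, 10 group coefficients, 19 residual degrees of freedom) was fitted; a call needed an adjusted p (Benjamini-Hochberg) below 0.05. Its SE is the log2 change divided by the square root of F. The steps were tested on simulated data. Replicates were not duplicates (chi-square per degree of freedom 3.0 to 30.4). Alternatives were DESeq2 1.42.0, limma 3.58.1 on log2(TPM + 1), other scalings, filters and covariates, a replicate block and leaving out each library. Without gene names, the rule for printed identifiers took the first member by rank, the member with the smallest larger 6 h p among those higher with both acetaminophen and gentamicin, and the smallest 6 h p among those lower with each, given a count in every library compared.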

Additional observations from a re-analysis of the deposited data

Results flagged for a closer look

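In 3 cases a printed transcript had all treated libraries above the controls at 24 h and all below the controls at 6 h. By selection every member rose at 24 h, and the difference between the times was not tested. ENSRNOT00000009448 with acetaminophen had an L of 1.06 at 24 h and an edgeR log2 change of -1.94 at 6 h. ENSRNOT00000060403 with gentamicin had an L of 1.25 at 24 h and a change of -1.16 at 6 h. ENSRNOT00000008941 with TCDD had an L of 2.78 at 24 h and a change of -0.21 at 6 h (adjusted p = 0.85), which was not called. Over all 150 members the same pattern was seen in 7 under acetaminophen, 3 under gentamicin, 13 under TCDD and 18 under trichloroethylene. Over the transcripts of the level range the pattern had a frequency of 6.01% (acetaminophen), 0.83% (gentamicin), 1.32% (TCDD) and 3.86% (trichloroethylene); the 24 h values chose the members.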

How the results depend on the processing

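The counts of members called higher at 6 h stayed within 1.5 times under every alternative run, at 78 to 87 with acetaminophen and 57 to 70 with gentamicin when 1 library was left out. Members called lower with acetaminophen numbered 3 to 6 in those fits and with gentamicin 0 to 1; the gentamicin count was 2 with DESeq2, the fragment length covariate, no robust dispersion and only the compared groups, and 0 with a filter at 10 CPM. ENSRNOT00000060403 is not among the 2 of the compared-groups fit. The count of all transcripts called with gentamicin ran from 881 to 1687 when 1 library was left out. Over all transcripts, DESeq2 called 6 with TCDD and 22 with trichloroethylene, limma 8 with trichloroethylene, and leaving out 1 library 0 to 3 and 0 to 2. With only the compared groups in the fit, 450 transcripts and 4 members, all lower, passed with trichloroethylene; the cause was not tested. On log2(TPM + 1) the members' median change with trichloroethylene was 0.0183 in place of -0.11. The labels do not say what a replicate number marks, and same-numbered libraries at 6 h correlated with control at r between -0.036 and 0.055. The deviations of 2 controls from their mean mirror each other, so this says little about pairing. Over all same-numbered pairs at 6 h, r ran from -0.144 to 0.198. With the replicate block, 87 and 72 members were higher at 6 h with acetaminophen and gentamicin, and 1964 transcripts changed with gentamicin. Between 230 and 324 transcripts qualified with pseudocounts of 2 and 0.5, and 137 and 139 members were again among the first 150; this was 129 with TMM-rescaled TPM and 120 with medians in place of means. Depth limits members with few counts, and 2 control libraries limit the 6 h tests.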
